A study of Mus musculus with 12 samples.

Results

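The genes described here are 10 members of the cytosolic heat shock system, of 52636 genes counted in the livers of 12 mice. They were chosen by name, not by their levels, though with earlier results of these data known. They are the heat shock transcription factor Hsf1, the Hsp70 chaperones Hspa1a, Hspa1b and Hspa8, and the Hsp110 chaperone Hsph1. The others are the J-domain proteins Dnaja1 and Dnajb1, the Hsp90 chaperones Hsp90aa1 and Hsp90ab1, and the small heat shock protein Hspb1. All 10 passed the filter on low counts (a mean of at least 12 counts per library), which left 12453 genes. The mice were C57Bl/6J males at 16 weeks of age, with no engineered allele named, in 2 groups of 6. VDD-F1 mice were born to mothers on a diet without vitamin D, taken with calcium gluconate, before mating and during pregnancy, and VDS-F1 mice to mothers on the matched diet with vitamin D. From delivery onward every mother, and after weaning every offspring, received the sufficient diet. Since vitamin D levels take time to recover after a change of diet, exposure before birth and in early life cannot be told apart. RNA came from the left lateral lobe of the whole liver, with 1 library per mouse from total RNA depleted of ribosomal RNA, and which mice shared a litter is not given in the sources used here. In whole tissue, fewer cells of a type and less RNA per cell cannot be told apart.

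Heat shock proteins are chaperones that bind unfolded polypeptides, hold them in solution and help them to fold. Hsp70 works in cycles of ATP hydrolysis that J-domain proteins start and that Hsp110 proteins reset as nucleotide exchange factors, and Hsp90 acts later, on kinases and steroid receptors among other clients. Hsf1 is held inactive by chaperones in unstressed cells, and when unfolded proteins draw the chaperones away it forms a trimer, binds heat shock elements and raises transcription of chaperone genes. In liver this system follows body temperature and feeding, and some of its genes follow the daily cycle.

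No member was called different between VDD-F1 and VDS-F1 mice. What stood out was the individual mouse: 8 of the 10 genes varied together in most of their pairs, mostly high in the VDS-F1 mice VDS5, VDS3, VDS1 and VDS4 and low in VDD2, VDD4 and VDS2. Hspa1b differed 10.7-fold between the mice at its ends and Hsp90ab1 1.69-fold.

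The libraries held 14275793 to 20815066 counts on genes, and 23.5% to 37.9% of fragments were unmapped. In VDS6, 11.1% of fragments overlapped no exon annotated on the counted strand, against 2.52% to 4.94% in the other 11 libraries. The 5 hepatocyte markers were all present, with summed levels of 94944 to 113961 CPM (counts scaled to library size with TMM factors) in VDD-F1 and 82458 to 102985 CPM in VDS-F1 mice. VDD2 stood apart in markers of other cells. It had the highest level of 4 of 5 stellate cell markers and of all 5 cholangiocyte markers, with Col1a1 at 169.8 CPM against a median of 22.8 CPM over the 12 mice and Spp1 at 66.5 CPM against a median of 19.8 CPM. Lrat, the other stellate marker, was lowest in this mouse, at 12.9 CPM. The same mouse was highest for 2 of 5 Kupffer cell markers (Cd5l at 104 CPM against a median of 50.3 CPM and Adgre1 at 41.5 CPM against 17.8 CPM), for both lymphocyte markers that passed the filter and for 1 of 5 endothelial markers. A further split of the mice comes from the study's supplement, which gives liver weights for VDD4, VDD5, VDD6, VDS3, VDS4, VDS5 and VDS6 (7 mice) but not for the other 5. What this difference in recording stands for is not given in the sources used here.

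Of the members, 6 had a RefSeq promoter sequence (GRCm38.p6, the build of the counts), taken from 250 bases before to 50 bases after each start site. The heat shock element is built of inverted repeats of a short unit, and a pair of such units, GAANNTTC or TTCNNGAA, was searched in the 250 bases before the start. Each of these motifs reads the same on both strands. The pair was present before at least 1 start site of 5 of these 6 genes, namely Hspa1a, Hspa1b, Hsph1, Dnaja1 and Hspb1, and before none of the 2 start sites of Dnajb1. Of all 27025 genes with a promoter sequence, 14.5% held it. Runs of 3 units, which occurred in 0.514% of genes, were found in none of the 6. Hspa8, Hsp90aa1, Hsp90ab1 and Hsf1 have no entry in the promoter table. The stretches that hold the pair are shown so that the 5 promoters can be compared: Hspa1a, Hspa1b, Hsph1 and Dnaja1 are among the genes that varied together from mouse to mouse, and Hspb1 is not. The pair is in capitals, 5′ to 3′ on the strand of the gene:

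Hspa1a: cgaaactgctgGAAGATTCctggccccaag

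Hspa1b: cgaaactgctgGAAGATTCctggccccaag

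Hsph1: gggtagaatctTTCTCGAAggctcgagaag

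Dnaja1: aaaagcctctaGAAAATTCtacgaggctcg

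Hspb1: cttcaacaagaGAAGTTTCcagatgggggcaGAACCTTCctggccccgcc

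The Hspa1a stretch lies at chr17:34972242-34972271 (minus strand), with the pair beginning at position -104 from the start site, and the Hspa1b stretch at chr17:34959324-34959353 (minus strand), with the pair at the same position. The whole promoter windows of these 2 genes had 296 of 300 bases in common. The Hsph1 stretch lies at chr5:149636351-149636380 (minus strand), with the pair at -33 from the first listed of 2 start sites. The Dnaja1 stretch lies at chr4:40722333-40722362 (plus strand), with the pair at -124 from the first listed of 3 start sites. Hspb1 had 2 pairs, at -117 and -97, in chr5:135887791-135887840 (plus strand). By the bounds GENCODE gives the genes, the Dnaja1 stretch and most of the Hsph1 stretch lie inside the annotated gene, and the others before it. A match in letters is not evidence that a factor binds there.

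VDD-F1 was compared with VDS-F1 to ask whether vitamin D deficiency before birth was followed by a different level of these chaperones in adult liver. All 10 fitted log2 fold changes were below 0, that is, lower in VDD-F1, with a median of -0.35 against 0.00 over all genes tested. None passed an adjusted p of 0.05 in edgeR's quasi-likelihood fit (p adjusted by Benjamini-Hochberg over all 12453 genes), by which 0.0402% of all genes were called. Before adjustment, 4 of the 10 were lower at p under 0.05 (Hsf1, Hspa1b, Hspa8 and Hsph1), beside 6.29% of all genes in that direction. The count changed when single mice were left out: it was 2 without VDD2, VDD4, VDS3 or VDS5, 6 without VDD6 or VDS6 and 7 without VDS2. By DESeq2's Wald test, which called 1.24% of all genes lower at an adjusted p under 0.05, the count of members was also 0. Because the members varied together from mouse to mouse, their shared direction is not 10 separate observations. The groups overlapped for every member. Levels of markers of other cells are given beside this result. The stellate marker Col1a1, a collagen gene, was at 72.2 ± 55.8 CPM in VDD-F1 and 14.9 ± 7.69 CPM in VDS-F1 mice (SD, n = 6 per group), a log2 fold change of 2.27 with an adjusted p of 0.0883 by edgeR and 0.00825 by DESeq2, and 1.81 without VDD2 (edgeR adjusted p = 0.163). Of the 5 stellate markers 4 had estimates above 0 with a median of 0.12, and all 5 cholangiocyte markers did with a median of 0.60. Of the 5 Kupffer cell markers 4 were below 0, as the members were, with a median of -0.31 and 2 at an unadjusted p under 0.05 (Clec4f at -0.50 and Timd4 at -0.81). Their summed level was 73.7 to 213 CPM in VDD-F1 and 116 to 230 CPM in VDS-F1 mice. Of the 5 endothelial markers 3 were below 0, with a median of -0.11, with Stab2 (-0.25) and Clec4g (-0.28) lower and Lyve1 (0.39) higher at an unadjusted p under 0.05, and sums of 177 to 210 CPM and 172 to 233 CPM. The 5 hepatocyte markers had a median of 0.01, the 2 lymphocyte markers tested 0.70 and the 3 erythroid markers -0.29. No marker in these lists passed an adjusted p of 0.05 for diet by edgeR. Their part in the result for the members was not tested.

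Hsf1 (chr15:76477422-76501913), the regulator of the response, had a modest spread. Its levels in VDD-F1 mice ran from 8.49 CPM in VDD6 through a median of 10.1 CPM to 12.1 CPM in VDD4. In VDS-F1 mice they ran from 11.4 CPM in VDS1 through a median of 12.4 CPM to 15.6 CPM in VDS4. Of the 6 VDS-F1 mice, 4 lay above all VDD-F1 mice, and the other 2 overlapped with them. The fitted log2 fold change was -0.31 ± 0.12 (SE, n = 6 per group), with an edgeR adjusted p of 0.223.

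Hspa1a (chr17:34969190-34972156) and Hspa1b (chr17:34956436-34959238) are neighbouring genes that encode nearly the same inducible Hsp70, kept low in unstressed cells. Hspa1b ranged in VDD-F1 mice from 5.29 CPM in VDD4 through a median of 9.87 CPM to 22.7 CPM in VDD6. In VDS-F1 mice it ranged from 4.72 CPM in VDS2 through a median of 29.7 CPM to 50.6 CPM in VDS5. Here 4 VDS-F1 mice exceeded every VDD-F1 mouse, yet the lowest of the 12 was also a VDS-F1 mouse. The log2 fold change of Hspa1b was -1.15 ± 0.49 (SE, n = 6 per group), with an edgeR adjusted p of 0.274. Hspa1a rested on only 2 to 71 counts per library, with VDD-F1 values of 0.137 to 1.83 CPM and VDS-F1 values of 0.413 to 3.54 CPM. Its medians were 0.969 and 1.93 CPM, the ranges overlapped, and the log2 fold change was -1.04 ± 0.55 (SE, n = 6 per group, edgeR adjusted p = 0.375). Between them, 47.1% of 100-base stretches of Hspa1a also occur in Hspa1b. Fragments that match both genes equally were not counted, so both levels are uncertain and may be understated. How many such fragments there were was not measured.

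Hspa8 (chr9:40800984-40810087) encodes the constitutive Hsp70, which folds new proteins and uncoats clathrin vesicles. It ranged in VDD-F1 mice from 555.1 CPM in VDD4 through a median of 939.9 CPM to 1033 CPM in VDD6. In VDS-F1 mice it ranged from 856.0 CPM in VDS2 through a median of 1227 CPM to 1338 CPM in VDS5. The VDD-F1 mice VDD4 and VDD2 lay below every VDS-F1 mouse, 4 VDS-F1 mice lay above every VDD-F1 mouse, and the rest overlapped. The log2 fold change was -0.43 ± 0.17 (SE, n = 6 per group), with an edgeR adjusted p of 0.246. Gene copies share 57.1% of its 100-base stretches, so its counts too may be partial.

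Hsph1 (chr5:149614287-149636376) encodes Hsp105, the Hsp110 protein that resets Hsp70. It had the smallest unadjusted p among the members for diet, 0.00890. Its VDD-F1 levels ran from 23.7 CPM in VDD2 through a median of 42.6 CPM to 65.9 CPM in VDD6, and its VDS-F1 levels from 44.2 CPM in VDS2 through a median of 78.8 CPM to 96.3 CPM in VDS5. In VDD-F1, 4 mice lay below every VDS-F1 mouse and 4 VDS-F1 mice above every VDD-F1 mouse, while VDD5, VDD6, VDS2 and VDS6 overlapped. The log2 fold change was -0.71 ± 0.23 (SE, n = 6 per group), and the adjusted p was 0.167 by edgeR and 0.0515 by DESeq2. None of its 100-base stretches occurs in another gene.

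The J-domain proteins deliver clients to Hsp70 and start its ATP cycle. Dnaja1 (chr4:40722150-40737149) ranged from 91.8 to 170 CPM in VDD-F1 mice with a median of 117 CPM, and from 110 to 188 CPM in VDS-F1 mice with a median of 147 CPM. Its log2 fold change was -0.29 ± 0.16 (SE, n = 6 per group, edgeR adjusted p = 0.381). Dnajb1 (chr8:83608193-83612653), the J-domain protein that heat induces together with Hsp70, ranged from 15.03 to 33.6 CPM in VDD-F1 mice with a median of 22.1 CPM, and from 17.3 to 38.4 CPM in VDS-F1 mice with a median of 31.6 CPM. Its log2 fold change was -0.40 ± 0.22 (SE, n = 6 per group, edgeR adjusted p = 0.401). In both genes VDD6 reached the level of the high VDS-F1 mice and VDS2 that of the low VDD-F1 mice, so that the groups overlapped broadly. Other genes share 22.6% of the 100-base stretches of Dnaja1 and 0% of those of Dnajb1.

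Hsp90aa1 (chr12:110690605-110702728) is the stress-inducible and Hsp90ab1 (chr17:45567775-45573271) the constitutive cytosolic Hsp90. Hsp90aa1 ranged from 95.5 CPM in VDD2 to 191 CPM in VDD5 among VDD-F1 mice, with a median of 154 CPM, and from 150 CPM in VDS2 to 218 CPM in VDS3 among VDS-F1 mice, with a median of 177 CPM. Hsp90ab1 ranged from 665.9 CPM in VDD2 to 1016 CPM in VDD6 with a median of 924.8 CPM, and from 849.9 CPM in VDS1 to 1127 CPM in VDS3 with a median of 1016 CPM. VDD2 lay below every other mouse in both genes. The log2 fold changes were -0.22 ± 0.15 for Hsp90aa1 and -0.14 ± 0.11 for Hsp90ab1 (SE, n = 6 per group), with edgeR adjusted p of 0.512 and 0.570. Gene copies share 40.7% of the 100-base stretches of Hsp90aa1, most of them with Gm12346, and 0% of those of Hsp90ab1.

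Hspb1 (chr5:135887919-135889563) encodes Hsp25, a small heat shock protein that holds unfolded proteins and binds actin filaments. Unlike the others it had both its highest and its lowest level in VDD-F1 mice, 27.5 CPM in VDD4 and 10.2 CPM in VDD2, with a median of 18.4 CPM in that group. VDS-F1 mice lay between, from 15.5 to 23.0 CPM with a median of 19.9 CPM. The log2 fold change was -0.09 ± 0.20 (SE, n = 6 per group, edgeR adjusted p = 0.872), and its sign turned when VDD2 was left out (0.04) and in the mice with a recorded liver weight (0.12). A pseudogene, Hsp25-ps1, shares 44.0% of its 100-base stretches.

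**Figure D1:**
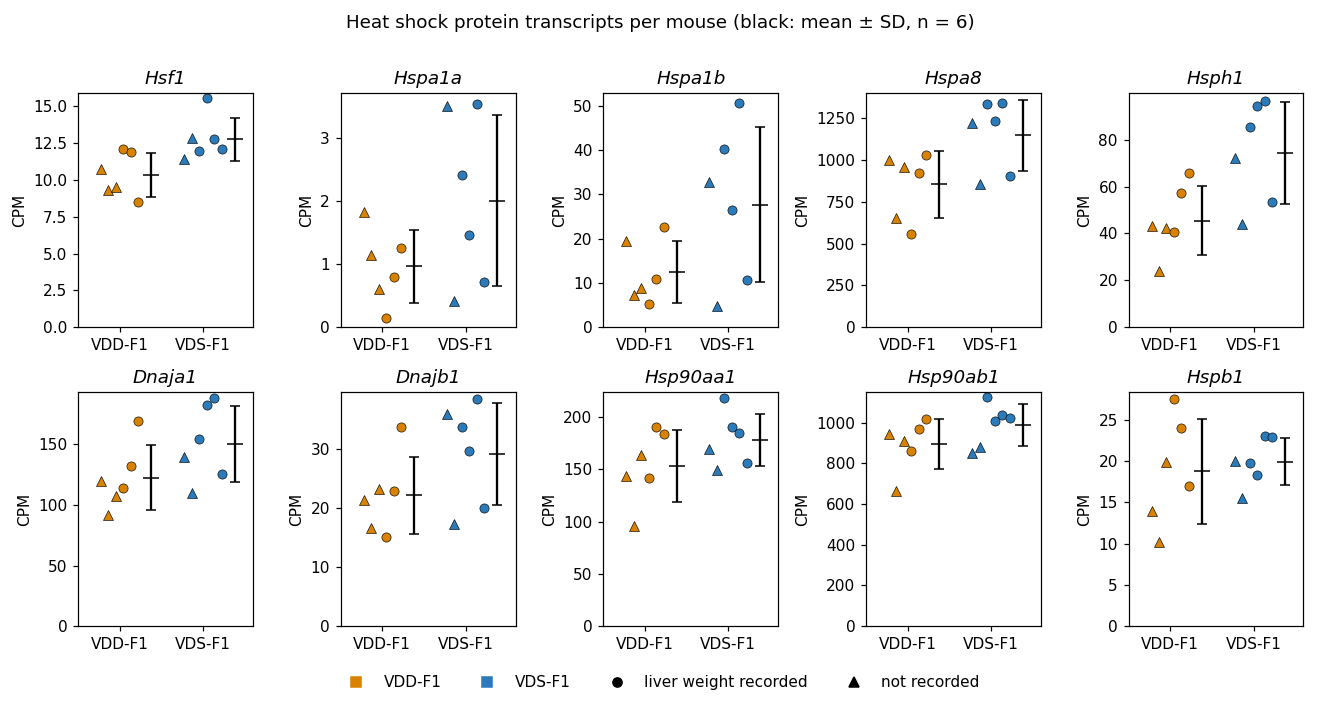
Level of each of the 10 genes in CPM (vertical axes, from 0) in 6 VDD-F1 and 6 VDS-F1 mice, with circles for mice with a recorded liver weight, triangles for the others, and the mean ± SD in black. The groups overlap in every panel, and Hspa1b spreads from 4.72 to 50.6 CPM.

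Mice with and without a recorded weight (7 and 5) were then compared, with diet as a term in the fit. No member was called at an adjusted p under 0.05 by edgeR, by which 2.46% of all genes were called. Of the 10 estimates, 9 were higher with a recorded weight, with a median log2 difference of 0.26 against -0.01 over all genes, and 5 passed an unadjusted p of 0.05, beside 5.87% of all genes in that direction. These 5 were Dnaja1, Hsph1, Hspb1, Hsp90ab1 and Hsp90aa1. All 5 had their lowest level in VDD2, a mouse without a recorded weight. Because members varied together, these are not 5 separate observations. Over the alternatives, which include each mouse left out, their estimates stayed above 0, the lowest being 0.16 for Hsp90ab1. The largest estimate of the 5, for Hsph1, was 0.55 ± 0.20 (SE, edgeR adjusted p = 0.210), from means of 70.4 ± 21.8 CPM (SD, n = 7) and 45.1 ± 17.4 CPM (SD, n = 5). Hspb1 was at 21.8 ± 3.65 CPM (SD, n = 7) and 15.9 ± 4.14 CPM (SD, n = 5), a log2 difference of 0.45 ± 0.17 (SE, edgeR adjusted p = 0.235). Dnaja1 differed by 0.38 ± 0.13 (SE, edgeR adjusted p = 0.171). The inducible Hspa1b gave 0.44 ± 0.51 and Hspa1a, the exception in sign, gave -0.32 ± 0.58 (SE).

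Markers of other cells were compared between the same sets. Both haemoglobin genes tested were called lower with a recorded weight, Hba-a1 at -1.51 (edgeR adjusted p = 0.0161) and Hbb-bs at -1.70 (edgeR adjusted p = 0.00671), while Alas2, the third erythroid marker, was at 0.35 (edgeR adjusted p = 0.324). The 3 together summed to 219 to 440 CPM with a recorded weight and 459.7 to 1288 CPM without, and these ranges did not overlap. The 5 Kupffer cell markers had a median of -0.49, with none called and sums of 73.7 to 174 CPM and 114 to 230 CPM. The medians were -0.10 for hepatocyte, -0.19 for stellate cell, 0.07 for endothelial, -0.22 for cholangiocyte and -0.10 for lymphocyte markers, and edgeR called 0 genes of these lists. The part of these cells in the differences of the members was not tested.

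Whether the difference by diet itself depended on the set was tested by an interaction term. It was called for 0.0883% of all genes and for no member by edgeR. At an unadjusted p under 0.05 there were 0 members, beside 1101 of the 12159 genes estimated in both sets of mice. In the mice with a recorded weight alone, 9 of 10 diet estimates were below 0, from -1.40 for Hspa1a to -0.12 for Hsp90aa1, and Hspb1 was at 0.12.

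**Figure D2:**
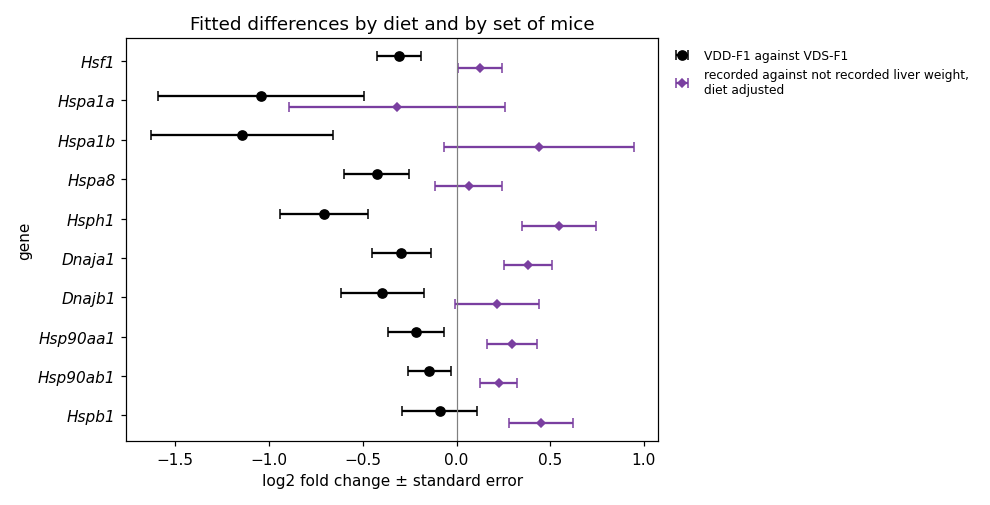
Fitted log2 fold changes (horizontal axis) with standard errors for each gene (vertical axis). Circles give VDD-F1 against VDS-F1 (all 10 below 0, from -1.15 to -0.09) and diamonds give mice with against mice without a recorded liver weight with diet in the fit (9 of 10 above 0).

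From mouse to mouse the members differed in how much they varied. The SD of log2 CPM over the 12 mice was 1.15 for Hspa1b and 1.14 for Hspa1a, larger than in 98.8% of the 8622 genes with a mean of at least 100 counts. It was 0.60 for Hsph1 (above 94.7% of those genes), 0.47 for Dnajb1 (90.8%), 0.39 for Hspa8 (86.5%) and 0.39 for Hspb1 (86.1%). The inducible Hsp70 genes thus spread most. Dnaja1 had an SD of 0.33 (above 79.7%), Hsp90aa1 of 0.31 (76.4%), Hsf1 of 0.24 (58.0%) and Hsp90ab1 of 0.20 (41.5%). Hspa1a is a low gene, and counting error adds to its spread.

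The same mice stood at the ends of most genes. VDS5 was highest for 6 of the 10 and among the top 3 for 9, while VDD2 was lowest for 5 and among the bottom 3 for 9. VDD2 was also the lowest mouse for 2185 of the 12443 other genes tested. VDD4 was among the bottom 3 for 7 and VDS2 for 6. The order did not follow diet alone: by the mean log2 CPM of the 10 genes VDS2 (5.22) stood below 4 VDD-F1 mice, and VDD6 (5.82) above 2 VDS-F1 mice. The 10 genes together took from 0.178% of the gene counts in VDD4 to 0.308% in VDS3.

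**Figure D3:**
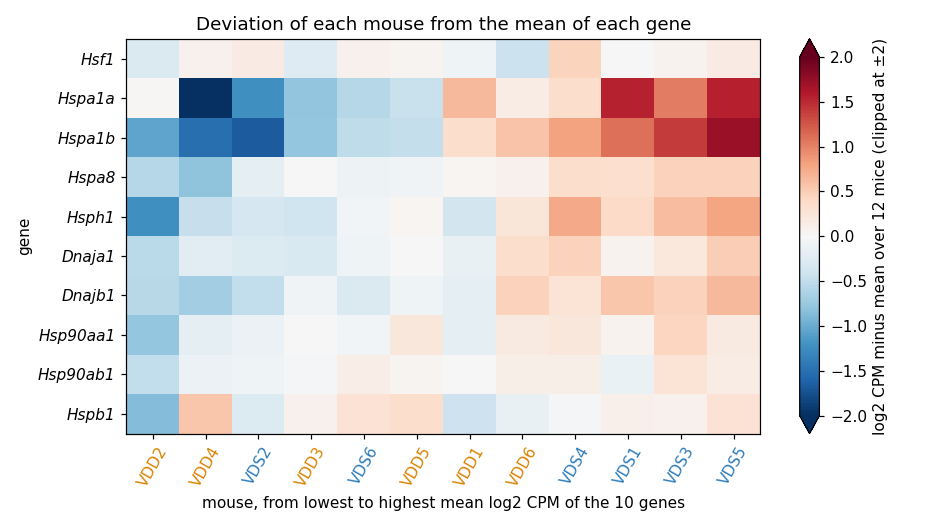
Difference of log2 CPM from the mean of each gene over 12 mice (color scale, clipped at 2 in either direction), with genes as rows and mice as columns from the lowest to the highest mean. VDD2, VDD4 and VDS2 are at the low end and VDS5, VDS3 and VDS1 at the high end. The Hspb1 and Hsf1 rows follow the gradient less closely than the others.

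Across the 12 mice, 22 of the 45 pairs of members were correlated in log2 CPM at an adjusted p under 0.05 (Pearson's r, permutation test with 100000 resamples, Benjamini-Hochberg over 45 pairs), and 23 by Spearman's rho. The median r was 0.60, and 44 of 45 were positive. All 22 were among the 28 pairs without Hsf1 and Hspb1, a split made after the values were seen, where the median r was 0.81. Hsf1 and Hspb1 took part in none. Within diet, with each group centred on its own mean, 20 pairs passed the threshold and the median r was 0.55 over all pairs and 0.77 over those 28. The levels of 2 genes in a mouse come from the same library and share its scaling. No share of correlated pairs among other genes is given here, so the count of 22 cannot be read against one.

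Hsph1 and Dnaja1 gave the highest value, r = 0.95 (permutation p = 1e-05, the smallest these resamples can give; adjusted p = 0.00045) and rho = 0.94 (permutation p = 3e-05; adjusted p = 0.000675). Without the 2 mice farthest from the median of Hsph1, r was 0.92, and within diet 0.95. For every pair, the 2 farthest mice were taken from the first-named gene alone, so they can differ between pairs. Hspa1b followed Dnajb1, its J-domain partner, with r = 0.93 (permutation p = 3e-05; adjusted p = 0.00045) and rho = 0.90 (permutation p = 0.00019; adjusted p = 0.00171), and 0.91 without the 2 farthest mice. Hspa8 and Dnajb1 had r = 0.91 (permutation p = 2e-05; adjusted p = 0.00045) and rho = 0.92 (permutation p = 6e-05; adjusted p = 0.000675), with 0.89 without the 2 farthest mice and 0.90 within diet. Dnajb1 was thus correlated with both the constitutive and the inducible Hsp70.

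Hspa1a and Hspa1b had r = 0.90 (permutation p = 1e-04; adjusted p = 0.000825) and rho = 0.92 (permutation p = 6e-05; adjusted p = 0.000675), and 0.88 without the 2 farthest mice. What their shared sequence adds to this value was not tested. The Hsp90 pair had r = 0.89 (permutation p = 0.00055; adjusted p = 0.0028) and rho = 0.70 (permutation p = 0.0143; adjusted p = 0.0307). Without the 2 mice farthest from the median of Hsp90aa1, r was 0.58 with an adjusted permutation p of 0.141, and the relation no longer passed the threshold. With Hsf1, the value ran from 0.03 (Hspa1a) to 0.52 (Hsph1), and none of the 9 pairs with Hsf1 passed the threshold. The median of these 9 values was 0.36. It was 0.56 without the 2 mice farthest from the median of Hsf1 and 0.11 within diet, and again none passed.

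**Figure D4:**
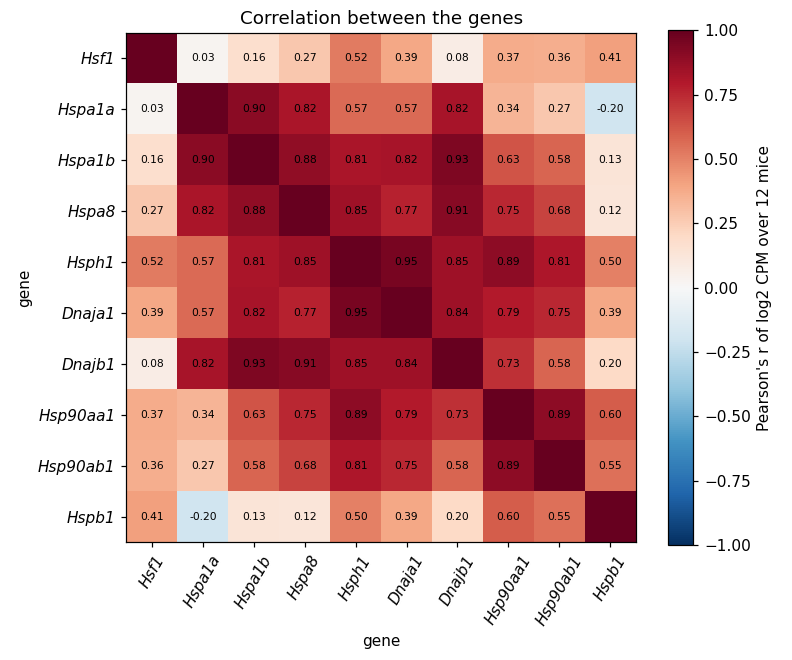
Pearson's r of log2 CPM over 12 mice for each pair of genes (both axes list the 10 genes). The block from Hspa1a to Hsp90ab1 holds r from 0.27 to 0.95, and the outer Hsf1 and Hspb1 rows hold r from -0.20 to 0.60.

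The members spanned a wide range of levels, given here in CPM per kilobase of exons. Fragments that match several genes equally were not counted. By 100-base stretches, the part shared with other genes was 57.1% for Hspa8, 56.5% for Hspa1a, 49.9% for Hspa1b, 44.0% for Hspb1, 40.7% for Hsp90aa1, 22.6% for Dnaja1 and 0% for the other 4 genes. The levels of the 6 genes that share sequence may therefore be understated to different degrees. The order among genes with close levels, such as Hsp90ab1 and Hspa8, is uncertain. Mean levels were 314 ± 39.8 for Hsp90ab1 and 233 ± 58.0 for Hspa8 (SD, n = 12). They were 42.1 ± 8.05 for Hsp90aa1, 18.7 ± 4.62 for Hspb1 and 15.8 ± 3.61 for Dnaja1 (SD, n = 12). Below these lay Hsph1 at 8.24 ± 3.19, Dnajb1 at 7.99 ± 2.56, Hspa1b at 7.14 ± 5.35, Hsf1 at 1.63 ± 0.27 and Hspa1a at 0.50 ± 0.38 (SD, n = 12). Between neighbours in this order the ranges over mice were apart only for Hspa8 over Hsp90aa1 (5.52-fold by means) and for Hsf1 over Hspa1a (3.25-fold). Hsph1 exceeded Dnajb1, neither of which shares sequence with another gene by this measure, in 7 of 12 mice.

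The partners of these chaperones were taken as lists of named genes. For diet, edgeR called 0 genes in each of them at an adjusted p under 0.05. Over all genes tested, 6124 of 12453 estimates were below 0, and 6.29% of genes were lower at an unadjusted p under 0.05, which the counts in these lists should be read against. Among 12 further Hsp70 family members and cofactors, 10 estimates were below 0 and 2 passed an unadjusted p of 0.05, the co-chaperone Bag3 (which links Hsp70 to selective autophagy) at -0.65 ± 0.18 (SE, n = 6 per group, edgeR adjusted p = 0.118) and the Hsp110 relative Hspa4 at -0.17 ± 0.07 (SE, n = 6 per group, edgeR adjusted p = 0.293). By DESeq2's Wald test Bag3 passed, with an adjusted p of 0.0244. Of the 12 estimates, 10 were below 0 in the mice with a recorded weight (median -0.17) and 5 in the others (median 0.01). Bag3 was at 61.7 ± 9.58 CPM in VDD-F1 and 96.7 ± 30.3 CPM in VDS-F1 mice (SD, n = 6 per group), and its highest values were in VDS4 (140 CPM) and VDS3 (118 CPM).

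Of 12 other J-domain genes, 8 estimates were below 0, and those with the smallest p were Dnaja4 (-0.37) and Dnajc5 (-0.13). Of 18 Hsp90 co-chaperones, 10 were below 0, and those with the smallest p were Cdc37l1 (-0.28) and the immunophilin Fkbp4 (-0.29). The subunits of the TRiC/CCT chaperonin, which folds actin and tubulin, gave 5 of 8 below 0 with a median of -0.03, and the mitochondrial chaperones 5 of 10 with a median of 0.00. The smallest p belonged to Cct7 (-0.11) and Cct6a (-0.08) in the former and to Grpel2 (0.47) and Dnaja3 (-0.14) in the latter. Among the small heat shock proteins 3 of 8 were tested, with Hspb6 at -0.50 and Cryab at 0.23. Hsf2 (-0.14) and the Hsf1-binding protein Hsbp1 (0.03) were among 3 of 4 tested heat shock factors and binding proteins. None of the genes named in these lists had an adjusted p under 0.05 for diet by edgeR.

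The endoplasmic reticulum has its own chaperones, under the control of the unfolded protein response. All 13 of these had estimates below 0, with a median of -0.28, and 3 were lower at an unadjusted p under 0.05, beside the same 6.29% of all genes. Among the 3 were Creld2 (-0.63, edgeR adjusted p = 0.235) and Manf (-0.42, edgeR adjusted p = 0.258). Creld2 ranged from 13.3 CPM in VDD2 to 67.2 CPM in VDS4. VDD2, the mouse that stood apart in markers of other cells, was the lowest mouse for 12 of the 13. Among all genes tested but the members, it was lowest for 2185 of 12443. Without VDD2, 10 were below 0, with a median of -0.16, and 2 were lower at an unadjusted p under 0.05. Of the 12159 genes estimated in both sets of mice, 5962 were then below 0 and 650 were lower at that p. In the mice with a recorded weight 8 were below 0 and 5 above, with a median of -0.07, and in the others all 13 were below 0, with a median of -0.37. The shared direction of this list thus depended on which mice were used. The cold-inducible RNA-binding proteins, which rise when body temperature falls, had estimates above 0, at 0.58 ± 0.21 for Cirbp (SE, n = 6 per group, edgeR adjusted p = 0.199) and 0.27 ± 0.26 for Rbm3 (SE, n = 6 per group, edgeR adjusted p = 0.662).

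How far other genes followed the members over the 12 mice was described by Pearson's r with the mean log2 CPM of the 10 genes, which shares its libraries with them and carries no test. Of 8613 other genes with a mean of at least 100 counts, the most alike were Mtf1 (r = 0.94), Luc7l (0.91), Ccdc117 (0.91), Camsap1 (0.91) and Top1 (0.90). Mtf1, the metal-responsive transcription factor, ranged from 21.8 CPM in VDD2 to 36.3 CPM in VDS4. Luc7l and Top1 encode a splicing factor and a DNA topoisomerase. The most unlike were Itgb5 (r = -0.94), Zc3h12d (-0.90) and Dbnl (-0.88). Itgb5, an integrin subunit, was highest in VDD2 at 104 CPM and lowest in VDS3 at 64.3 CPM.

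By list, the median r was 0.51 for the endoplasmic reticulum chaperones, 0.48 for the Hsp90 co-chaperones, 0.46 for the Hsp70 partners, 0.41 for the chaperonin, 0.34 for the mitochondrial chaperones, 0.31 for the small heat shock proteins, 0.30 for the J-domain genes and 0.26 for the other heat shock factors and binding proteins, against 0.01 for all other genes tested. The medians of these 8 lists were lower without the 2 mice farthest from the median of the members' mean. They were then 0.29 for the endoplasmic reticulum chaperones, 0.30 for the Hsp90 co-chaperones, 0.36 for the Hsp70 partners, 0.26 for the chaperonin, -0.10 for the mitochondrial chaperones, 0.05 for the small heat shock proteins, 0.16 for the J-domain genes and 0.07 for the other factors, against -0.02 for all other genes tested. Single genes with high values, singled out after their values were seen, were Chordc1 (r = 0.89, and 0.82 without the 2 mice), Dnajb4 (0.88 and 0.81), Cdc37l1 (0.86 and 0.91), Bag3 (0.84 and 0.86) and Hsf2 (0.77 and 0.70). Chordc1, an Hsp90 co-chaperone, was at 22.5 CPM in VDD2 and 43.8 CPM in VDS5. In the opposite direction, Cirbp had r = -0.86, with 12.1 CPM in VDD2 and 4.37 CPM in VDS5, and Rbm3 r = -0.58, with 28.1 and 9.79 CPM in the same mice. Without the 2 mice farthest from the median, r was -0.77 for Cirbp and -0.30 for Rbm3.

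**Figure D5:**
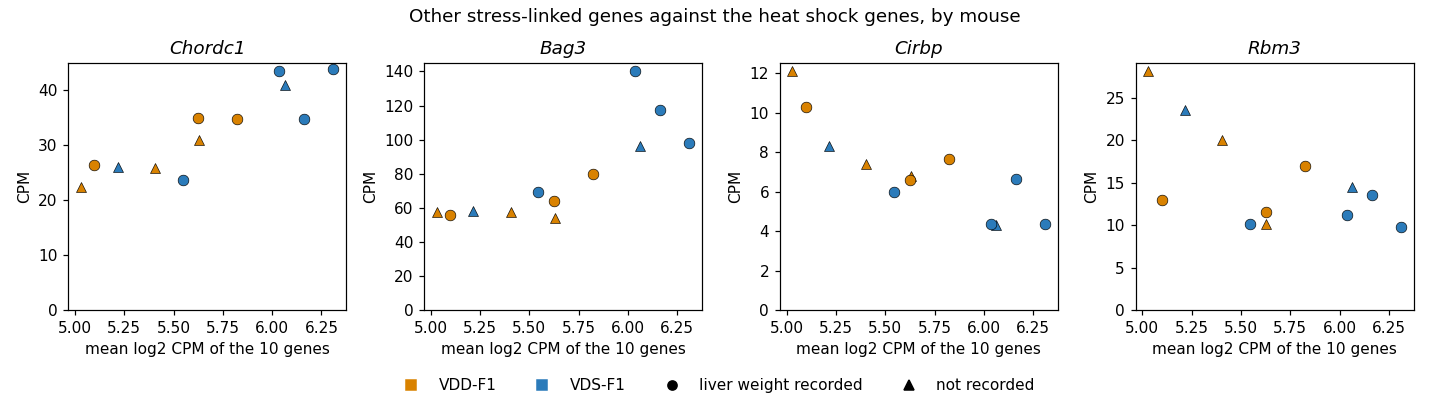
Level in CPM (vertical axes, from 0) of Chordc1, Bag3, Cirbp and Rbm3 against the mean log2 CPM of the 10 genes (horizontal axes) in 12 mice, with colors for diet and shapes for the record of liver weight. Chordc1 and Bag3 are higher and Cirbp is lower in the mice with high heat shock gene levels.

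Features of the libraries were also set beside the mean of the members. Over the 12 mice, r was 0.19 for the number of counts, 0.27 for the percent unmapped and -0.35 for the percent mapped to several places. It was -0.03 for the percent that overlapped no exon on the counted strand. Without the 2 mice farthest from the median these were 0.43, -0.06, 0.03 and -0.17. Among summed cell markers, r was -0.62 for stellate cells, -0.48 for cholangiocytes, -0.41 for hepatocytes, -0.33 for lymphocytes, -0.27 for erythroid cells, -0.03 for Kupffer cells and 0.18 for endothelial cells. Without the 2 farthest mice the same values were -0.47, -0.19, -0.46, -0.20, -0.01, 0.26 and 0.28, and within diet -0.45, -0.30, -0.07, -0.27, -0.37, -0.28 and -0.08. Of these 7 sums, those of stellate cells, cholangiocytes, hepatocytes, lymphocytes and erythroid cells were thus below 0 in all 3 computations, with sizes that changed with the mice and the centring. The 5 stellate cell markers, all above 0 counts, summed to 281 to 638 CPM in VDD-F1 and 266 to 379 CPM in VDS-F1 mice, and the 5 cholangiocyte markers to 23.9 to 115 CPM and 27.6 to 51.0 CPM. The 3 neutrophil markers did not pass the filter. The part of these cells in the levels of the members was not tested. Without VDD2, the mouse that stood apart in several of these markers, 19 of 45 pairs of members passed the threshold. The diet estimates were then below 0 for 9 of 10 members, beside 5962 of the 12159 genes estimated in both sets of mice.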

How the data were processed

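Livers of 6 VDD-F1 and 6 VDS-F1 mice were measured. The authors trimmed reads, aligned them with STAR (version not given in the sources used here) to mm10 (GENCODE M15, GRCm38) and deposited raw counts of uniquely mapped fragments per gene. The reverse-strand count was used. Symbols came from GENCODE M21, matching 52489 of 52636 IDs. Counts were tested with edgeR 4.0.16 in R 4.3.3 (TMM, legacy quasi-likelihood fit) where the study used DESeq2, keeping genes whose mean count reached 12, with Benjamini-Hochberg adjustment. Calls needed an adjusted p under 0.05 and a log2 fold change beyond 1, and counts by adjusted p alone are given. Levels are CPM and log2 CPM has a prior count of 2. Counts of a few per library, as in Hspa1a, are imprecise. The mice are separate animals. Tests were checked on simulated data. Alternatives were DESeq2 1.42.0, voom in limma 3.58.1, a newer edgeR form, other size factors and filters, the unstranded count, a replicate block, the set of mice, each set alone and each mouse left out. Leaving out each mouse in the correlations, and VDD2 in the lists, was chosen after seeing the data. The members and lists were chosen with earlier results of these data known. Named genes were all members, per list those with an adjusted p under 0.05 or the 2 with the smallest p for diet, and the 5 most and 3 least like the members. Sequences are RefSeq's (GRCm38.p6). Python 3.11.15, NumPy 2.4.6, pandas 2.3.3, SciPy 1.17.1 and matplotlib 3.10.9 were used.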

Additional observations from a re-analysis of the deposited data

Results flagged for a closer look

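Over the 20 groups of 6 mice tested (10 genes in 2 groups), the level of Hsf1 in VDS4, 15.6 CPM, lay apart from the other VDS-F1 mice, the nearest being at 12.9 CPM. The gap was 0.648 of the range of the group, above the critical value of 0.625 for 6 samples. Chance flags about 1 in 20 such groups. Without VDS4, the log2 fold change of Hsf1 was -0.24 (edgeR adjusted p = 0.402).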

How the results depend on the processing

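The counts of members called for diet, set and their interaction, with an adjusted p under 0.05 and a log2 fold change beyond 1, were 0 in the main analysis and in every alternative run. By adjusted p alone they were 0 too, except for Hsph1 between the sets with no filter on low counts (0.55, edgeR adjusted p = 0.0179). That includes the fit with the replicate number as a block: with this replicate block, 0 members were called and 3 had an unadjusted p under 0.05. The same numbers mark different mice, and over 6 pairs the correlation of deviations ran from -0.08 to 0.10, with 0 of 6 mice correlating best with their own number, so the block has no basis in the design. The number of members at an unadjusted p under 0.05 for diet was 4 in the main analysis and 2 to 7 when single mice were left out (2 without VDD2, VDD4, VDS3 or VDS5, and 7 without VDS2). Of 229 recomputed diet values, 226 kept their sign and 3 turned, all of Hspb1: 0.0055 with voom, 0.12 in mice with a recorded weight, and a range of -0.23 to 0.039 over left-out mice. Of 189 set values, 183 were alike, 5 turned and 1 passed the threshold. Hspa1a turned to 0.38 with voom and ranged from -0.72 to 0.12 over left-out mice, and Hspa8 from -0.048 to 0.19. DESeq2 called 4 genes of the pathway lists for diet (Bag3, Cry2 and Hlf lower, Klf6 higher in VDD-F1), and edgeR 0, also without VDD2. The count of correlated pairs was 16 to 24 over all alternatives and 19 to 24 over left-out mice. The causes of these changes were not tested. Over all genes, the diet calls at adjusted p under 0.05 ranged widely, with 5 by edgeR and 504 by DESeq2, 590 by voom and 20 by the newer form.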

Other observations

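Clock genes follow the time of day and immediate early genes respond within minutes to stimuli, and both were counted for diet in the same fit. Of 16 clock genes, 15 had estimates below 0 in VDD-F1, beside 6124 of all 12453 genes tested, and edgeR called 0. Of the 16 estimates, 11 had opposite signs in the mice whose liver weight was recorded and in the others, beside 5193 of the 12159 genes estimated in both. Dbp was at -3.64 with a recorded weight and 3.14 without, and Nr1d1 at -1.67 and 1.47 (edgeR adjusted p = 0.0573 for the interaction of diet and set). The interaction was called by edgeR for 0 of the 16 clock genes, and that of Nr1d1 had the lowest adjusted p among them. At an unadjusted p under 0.05 there were 9 of the 16, beside 1101 of the 12159 genes estimated in both sets. The smallest p for diet belonged to Cry2 (-0.52, edgeR adjusted p = 0.1004) and Hlf (-0.52, edgeR adjusted p = 0.103). Of 11 tested immediate early genes, 10 were above 0 (10 in mice with a recorded weight and 5 in the others) and edgeR called 0, with Klf6 at 0.95 (edgeR adjusted p = 0.114) and Egr1 at 1.32 (edgeR adjusted p = 0.198). Klf6 was lower with a recorded liver weight (-0.75, edgeR adjusted p = 0.0481), and Zfp36 had a diet difference that depended on the set (1.38, edgeR adjusted p = 0.0265).

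Dbp, a clock output chosen after its values were seen, was at 100 CPM in VDD2 and 82.1 CPM in VDS5, the mice with the lowest and the highest heat shock levels, and between 1.42 and 28.0 CPM in the other 10. Like Dbp, several clock genes were highest in these mice. In VDD2 and VDS5, Tef was at 74.3 and 115 CPM, Nr1d2 at 61.0 and 81.6 CPM and Per3 at 8.61 and 9.10 CPM. Bhlhe41 was at 7.05 and 8.82 CPM and Ciart at 4.02 and 7.08 CPM. Other clock genes differed between these mice: Hlf was at 38.8 CPM in VDD2 and 81.9 CPM in VDS5, and Per1 at 20.3 and 63.1 CPM. With the mean of the heat shock genes, r over the 12 mice was 0.18 for Dbp, 0.69 for Hlf, 0.63 for Clock and 0.53 for Per1, with a median of 0.28 over the 16 clock genes and -0.51 over the 11 immediate early genes, as a description without a test. The hour at which each liver was taken is not given in the sources used here.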
